A study of Mus musculus with 10 samples.

Results

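The respiratory chain of the inner mitochondrial membrane was described through the nuclear genes of its complexes I to IV in mouse dentate gyrus with and without extra Sox11. The members were protein-coding nuclear genes whose symbols begin with Nduf, Sdha to Sdhd, Uqcr or Cox4 to Cox8 and whose mean over the 10 libraries was at least 10 normalized counts. Of 87 genes with these prefixes, 7 were not protein coding and 1, Cox8c, had a mean under 10. The remaining 79 of the 17007 genes tested comprised 46 genes of complex I, 8 of complex II, 8 of complex III and 17 of complex IV. By symbol 12 were taken as assembly factors (Ndufaf1 to Ndufaf8 and Sdhaf1 to Sdhaf4) and the other 67 as subunits. The 67 include Cox7a2l, which is listed below among the supercomplex factors.

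The study measured RNA in microdissected dentate gyrus of 10 C57Bl/6 mice aged 8 weeks. In 5 mice both dentate gyri were injected with adeno-associated virus of serotype 9 carrying Sox11, a transcription factor of the SoxC group, and in 5 control mice with the same serotype carrying GFP, a fluorescent protein. All 10 animals had thus received a virus, and no uninjected group entered the comparison. The sources used here do not state the promoter of the vectors, the share of cells transduced or the time from injection to dissection. Each library comes from a separate mouse, so the p-values measure the spread between these mice.

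Complex I passes electrons from NADH, and complex II from succinate, to ubiquinone. Complex III hands them on to cytochrome c, and complex IV, cytochrome c oxidase, to oxygen, while complexes I, III and IV pump protons that drive ATP synthase. All but complex II combine subunits made from mitochondrial DNA with a larger number imported from the cytosol, and neurons draw most of their ATP from this chain. Several subunits have a second form that is known from muscle, lung, testis or hypoxic cells.

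Recovered reads per library ranged from 45100154 to 68769808. Sox11 itself ran from 1364 to 1634 normalized counts in controls and from 9803 to 20434 with the Sox11 virus (log2 fold change 3.08 ± 0.18 SE, limma adjusted p = 9.18e-06), which follows the labels. One control, GFP 3, stood apart in choroid plexus genes: the 10 markers summed to 570216 there and to between 4335 and 9377 in the other 9 libraries. Columns are numbered 1, 3, 4, 5 and 6 for GFP and 1, 2, 3, 6 and 7 for Sox11, and the labels do not say what the numbers stand for. In several members below, the Sox11 libraries 6 and 7 parted from Sox11 1 to 3.

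Of the 79 members, 17 fell in the Sox11 libraries and 0 rose at a limma adjusted p below 0.05. Only Ndufa7 was higher at an unadjusted p below 0.05, and edgeR and DESeq2 also called 0 that rose. Across all genes tested, 1592 of 17007 fell, which is 9.36%, and 1642 rose, which is 9.65%. The members that fell were 11 subunits counted with complex I by prefix, Uqcrc2 of complex III and Cox7b of complex IV. In complex II they were Sdha, Sdhd and the assembly factors Sdhaf3 and Sdhaf4. Each was lower by a small amount, from 8.35% for Ndufb3 to 16.9% for Sdhaf3. The log2 fold change was below 0 in 64 of 79 members (81.0%) and in 51.5% of all genes, with a median of -0.07 over the members and -0.01 over all genes. In 15 members every Sox11 library lay below every GFP library (19.0%), against 7.29% of all genes, and in none did every Sox11 library lie above, against 8.63%.

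The members are well expressed, and depth bears on how often a small change is called. None of the 7 members with a GFP mean under 200 normalized counts was called. Of the 72 above that level 17 fell, which is 23.6%. Of the 11277 genes whose means lie in the same range 1364 fell, which is 12.1%, and 1336 rose, which is 11.8%. That range is wide, from 260 (Ndufaf6) to 21613 normalized counts (Sdha), and levels within it were not matched to those of the members. Every Sox11 library lay below every GFP library in 15 of the 72 (20.8%), against 9.38% of the genes in that range. Every Sox11 library lay above in 0 of the 72, against 10.7%. Just inside the threshold stood Ndufa4, Ndufa12 and Sdhaf4 with adjusted p of 0.0420, 0.0431 and 0.0455. Just outside stood Ndufaf4 and Ndufb8 with 0.0541 and 0.0546.

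The count of 17 was fragile although the direction was not: all 17 stayed below 0 under each of 23 other settings. Leaving out GFP 4, GFP 5 or GFP 6 gave 9, 7 and 8 members that fell, of which 9, 7 and 7 were among the 17. Leaving out Sox11 1, Sox11 2 or Sox11 3 gave 8, 8 and 9, of which 8, 8 and 8 were among the 17. In the same 6 fits 1175 to 1241 of all genes fell, against 1592 with every library. Ndufv2, Ndufs1, Ndufb5, Ndufa10 and Ndufab1 stayed called whichever library was left out, and each of the other members that fell lost its call in 3 to 8 of the 10 fits. Within the columns numbered 1 to 3 limma called 0 members (14 lower and 5 higher at an unadjusted p below 0.05), while 424 of all genes fell. Within those numbered 4 to 7, 7 members fell, 4 of them among the 17, and 1 rose. The all-gene count within 4 to 7 is not given here, so the member counts of these subsets were not compared. At a threshold of 0.01, Ndufv2 alone was called.

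**Figure D1:**
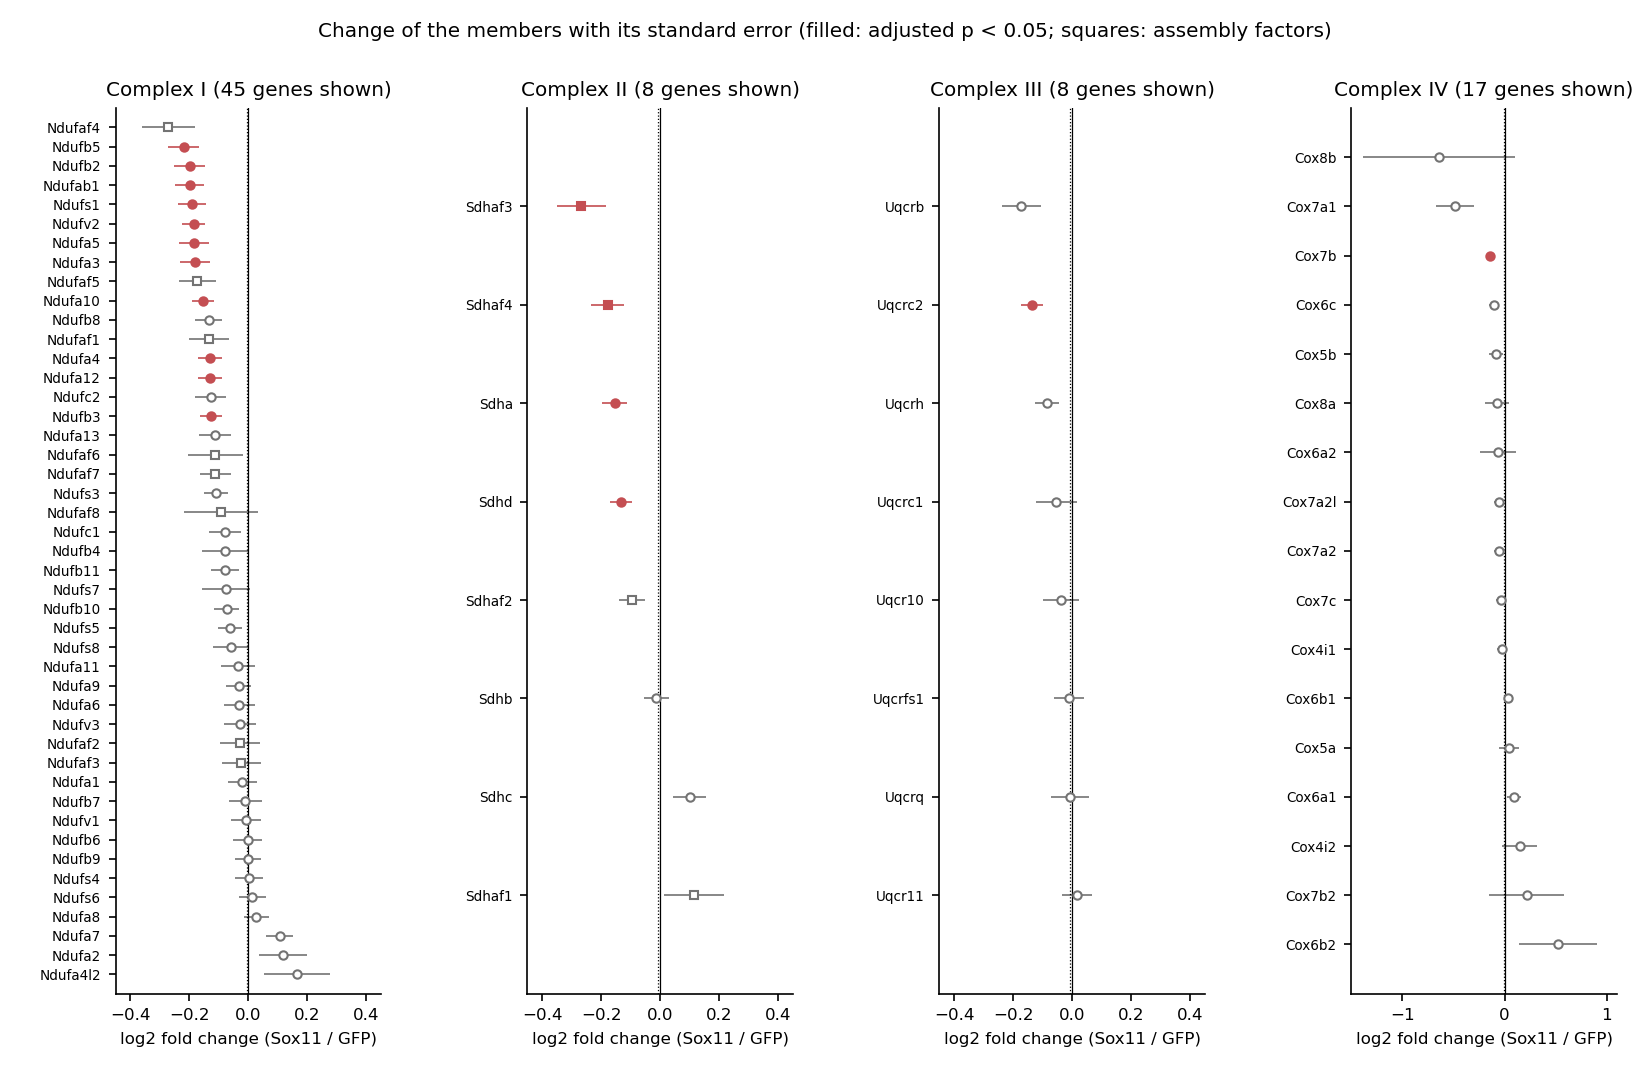
Log2 fold change of Sox11 over GFP libraries (x axis) for 78 of the 79 members (y axis, ordered by change), in 1 panel per complex, with bars of 1 standard error, filled points for adjusted p below 0.05, squares for assembly factors, a solid line at 0 and a dotted line at the median of all genes. The x axis of complex IV is wider than the others. The 17 filled points all lie left of 0, between -0.13 for Ndufb3 and -0.27 for Sdhaf3.

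Cell type markers moved with the same contrast, in which 9.36% of all genes tested fell and 9.65% rose. Of 5 neuronal markers 3 fell, Snap25 by 0.47, Slc17a7 by 0.32 and Syt1 by 0.29 on the log2 scale. The log2 fold changes of the 5 ran from -0.47 to 0.21, with 4 below 0. The list summed to 331224 to 415812 normalized counts in GFP and 311805 to 335179 in Sox11 libraries. Of 6 astrocyte markers 2 rose, Gfap by 0.46 and Aldh1l1 by 0.22, with sums of 119932 to 136338 in GFP and 129958 to 148690 in Sox11 libraries. Of 6 granule neuron markers Rfx3 rose while C1ql2 and Plk5 fell, with sums of 53245 to 77009 and 58243 to 82842. The granule neurons that define the dentate gyrus were thus represented in every library. Of 8 interneuron markers Gad2 fell, with sums of 34526 to 41342 and 28252 to 35330. Of the markers of choroid plexus, pericytes and smooth muscle, endothelium, oligodendrocytes and microglia 0 were called by limma. At an unadjusted p below 0.05 there were 1 of 10 choroid plexus and 2 of 5 microglia markers, and edgeR called 1 choroid plexus marker. No marker was at 0 in all libraries. In bulk tissue fewer cells of a type and less RNA per cell cannot be told apart, and the part of these shifts in the members' fall was not tested.

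Levels per kilobase of transcript set the scale of the changes. In GFP libraries the median subunit stood at 3971 ± 76.7 normalized counts per kilobase in complex I, 4416 ± 74.2 in complex II, 7047 ± 55.7 in complex III and 6252 ± 224 in complex IV (SD, n = 5). In Sox11 libraries it stood at 4000 ± 243, 4223 ± 105, 6875 ± 481 and 6075 ± 309 (SD, n = 5), so by this measure complex I was not lower. The highest subunits were Cox4i1 of complex IV at 24940, Ndufa4 at 21061, Uqcrh of complex III at 14433 and Sdha at 7853 per kilobase. At the other end stood the second forms Cox7b2 at 18.3 and Ndufa4l2 at 92.9, while the lowest subunits of complexes II and III were Sdhc at 2031 and Uqcrfs1 at 4190 per kilobase. All these levels rest on the median length of a gene's transcripts. With the union of its exons the 4 medians were 2286, 3212, 4404 and 2844 in GFP libraries. In Sox11 libraries they were 2118, 3029, 4179 and 2768, so by that length the median of complex I was lower. Per kilobase of transcript the summed level of the complex I subunits was also lower. It was 176432 ± 3029 in GFP and 167182 ± 3369 in Sox11 libraries (SD, n = 5 each).

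The median subunit of each complex was also followed by library, without a test of differences between complexes. These medians rest on 38, 4, 8 and 17 subunits in complexes I to IV, so their spreads are not directly comparable. The 17 of complex IV include second forms with GFP means under 200. The median subunit of complex I, as a log2 level relative to the GFP mean, ran from -0.02 to 0.03 in GFP libraries and from -0.13 to -0.04 in Sox11 libraries, with no overlap. For the 4 subunits of complex II it ran from -0.03 to 0.04 and from -0.12 to -0.03, and the groups overlapped at their edges. In complex III the Sox11 libraries spread from -0.13 to 0.05 around GFP values of -0.04 to 0.04. In complex IV they spread from -0.15 to 0.01 around GFP values of -0.09 to 0.03, and 4 of the 5 Sox11 libraries lay within the GFP range.

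**Figure D2:**
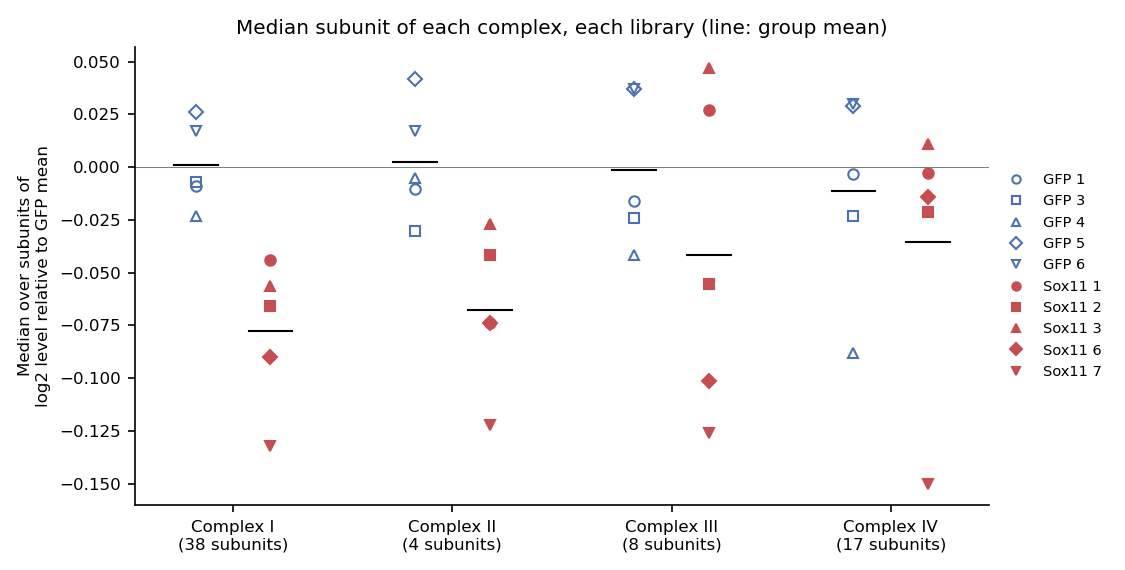
Median over the subunits of each complex of the log2 level relative to the GFP mean (y axis), for each of 5 GFP (open blue) and 5 Sox11 libraries (filled red), with a line at each group's mean. In complex I all Sox11 libraries sit at or below -0.04, under every GFP library, while Sox11 7 is the lowest library in all 4 complexes.

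Complex I holds 7 core subunits encoded in the nucleus, which carry the flavin and iron-sulfur clusters that move electrons, and many accessory subunits that build and hold the complex. Of the core subunits 2 of 7 fell, Ndufv2 and Ndufs1, against 9.36% of all genes tested. Of the 31 other Nduf subunits, counted here as accessory, 9 fell. The 31 were taken by prefix and include Ndufa4, which fell and is known to associate with complex IV, and its second form Ndufa4l2. All 7 core subunits had a log2 fold change below 0, as did 25 of the 31 accessory ones. None of the 8 Ndufaf assembly factors was called by limma, though all 8 lay below 0. At an unadjusted p below 0.05 there were 2 of the 8, edgeR called 0 and DESeq2 called 2.

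Ndufv2 (chr17:66078638-66101559, GRCm38), the iron-sulfur subunit of the NADH-binding arm, had the lowest p of all members. It stood at 4767, 5349, 5091, 5097 and 5028 normalized counts in GFP 1, 3, 4, 5 and 6, and at 4411, 4483, 4329, 4503 and 4541 in Sox11 1, 2, 3, 6 and 7. Every Sox11 library lay below the lowest GFP library, with means of 5066 ± 208 and 4453 ± 84.2 (SD, n = 5 each). The log2 fold change was -0.19 ± 0.04 SE (limma adjusted p = 0.00746), and it remained called in 20 of 23 other settings.

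Ndufs1 (chr1:63143596-63176833), the largest subunit of the electron input arm, fell by 0.19 on the log2 scale (limma adjusted p = 0.0154). Its values were 8805, 9313, 9549, 9779 and 9277 in the GFP libraries and 7896, 7988, 7864, 8793 and 8417 in the Sox11 libraries. The groups did not overlap, but Sox11 6, at 8793, came close to GFP 1, at 8805.

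Other core subunits gave smaller values. Ndufv1, which binds NADH and the flavin, stood at 7276 ± 342 normalized counts in GFP and 7240 ± 399 in Sox11 libraries (SD, n = 5 each), a log2 difference of -0.01 ± 0.05 SE. Ndufv1 and Ndufv2 are partners in the same arm, and the difference between their fold changes was not tested. Ndufs7, another iron-sulfur subunit, stood at 3414, 3309 and 3383 in Sox11 1, 2 and 3, each above at least 4 of the 5 GFP libraries, and at 2687 and 2618 in Sox11 6 and 7, below all GFP libraries (3091 to 3380). Over the group its log2 fold change of -0.08 had an adjusted p of 0.589. Ndufs3 and Ndufs8 had log2 fold changes of -0.11 and -0.06 and did not pass.

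Among the accessory subunits Ndufb5 (chr3:32736990-32751566), of the membrane arm, fell the most, by 0.22 ± 0.05 SE on the log2 scale (limma adjusted p = 0.0124). It stood at 4620, 5312, 4849, 5047 and 4952 in GFP libraries and at 4330, 4275, 3903, 4558 and 4222 in Sox11 libraries. The highest Sox11 library was below the lowest GFP library, and Sox11 3 was the lowest of all. Ndufab1, the mitochondrial acyl carrier protein that also serves fatty acid and lipoate synthesis, fell by 0.20 (limma adjusted p = 0.0178), from 1415, 1318, 1329, 1269 and 1333 to 1196, 1166, 1197, 1192 and 1055. Sox11 7 was the lowest of the Ndufab1 values by a wide margin. Ndufb2, also of the membrane arm, fell by 0.20 (limma adjusted p = 0.0235), from 1659 ± 111 to 1443 ± 58.5 normalized counts (SD, n = 5 each).

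Ndufa10 (chr1:92439010-92473860), a subunit of the membrane arm, had a small spread: 7345 ± 159 in GFP and 6603 ± 172 in Sox11 libraries (SD, n = 5 each). It stood at 7207, 7164, 7554, 7411 and 7389 against 6624, 6611, 6874, 6445 and 6461, with the groups well apart. Its log2 fold change of -0.15 (limma adjusted p = 0.0133) stayed past the threshold with any library left out.

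Ndufa5, which sits on the arm that carries electrons, fell by 0.18 on the log2 scale (limma adjusted p = 0.0254). It had 3354 to 3654 normalized counts in GFP libraries and 2797 to 3280 in Sox11 libraries, with no overlap. Ndufa3 of the membrane arm likewise fell by 0.18 (limma adjusted p = 0.0286). Its Sox11 libraries split into 2891 and 2786 for Sox11 1 and 2 and 2465 to 2546 for the other 3, while GFP libraries stood at 2896 to 3047. The gap between the groups for Ndufa3 was thus set by Sox11 1, at 2891, and GFP 4, at 2896.

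Ndufa4, listed here by its prefix, is known to associate with complex IV and was first assigned to complex I. It stood at 9292 to 10023 in GFP and at 8585 to 9314 in Sox11 libraries, with Sox11 6 above GFP 1, and fell by 0.13 (limma adjusted p = 0.0420). Ndufa12 and Ndufb3 also fell, each by 0.13 (adjusted p 0.0431 and 0.0325), and are named here after their values were seen. They share sequence with other loci: 79.8% of the 31-base words of the Ndufa12 transcripts and 86.5% of those of Ndufb3 occurred in no other gene, so reads could be split between copies. The strand setting of the counting is not known, and 12.3% of the exons of Ndufb5, 12.7% of those of Sdhaf4 and 19.7% of those of Uqcrc2 overlap exons on the opposite strand, the largest such shares among the members that fell.

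Of the 27 complex I subunits that were not called, 6 had a log2 fold change above 0, the highest in Ndufa4l2 (0.16), Ndufa2 (0.12) and Ndufa7 (0.11). Ndufa7 came nearest to passing among these 3, with an adjusted p of 0.144. Its Sox11 libraries stood at 2548 to 2864 and its GFP libraries at 2365 to 2585. Among the assembly factors Ndufaf4, a chaperone of early complex I assembly, had the lowest value, at -0.27 ± 0.09 SE on the log2 scale (adjusted p = 0.0541), with 1558 to 2041 in GFP and 1278 to 1627 in Sox11 libraries.

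**Figure D3:**
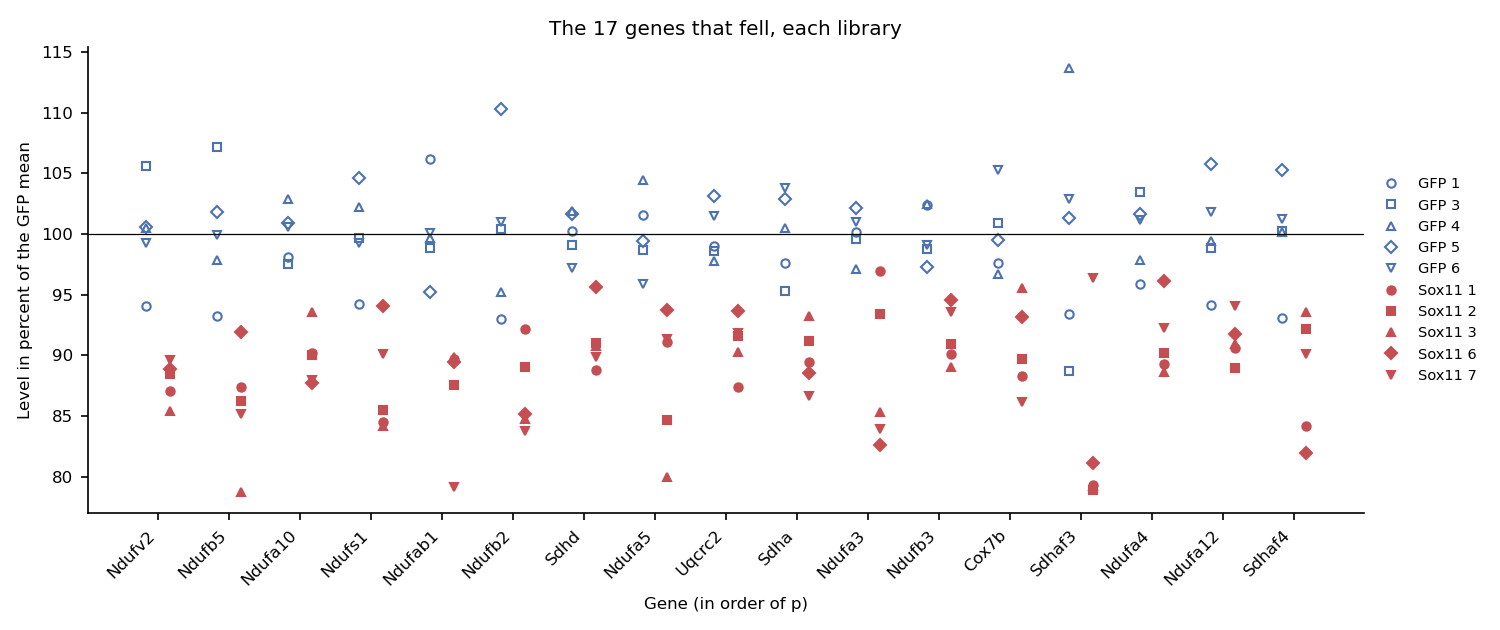
Level of each of the 17 members that fell (x axis, in order of p) in each library, as a percentage of that gene's GFP mean (y axis, not starting at 0), with open blue symbols for GFP and filled red symbols for Sox11 libraries. The groups are apart in 14 genes and overlap in Sdhaf3, Ndufa4 and Sdhaf4, and no single Sox11 library is the lowest throughout.

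Complex II is succinate dehydrogenase, an enzyme of the citrate cycle as well as of the chain, built from 4 subunits that are all encoded in the nucleus. Of its subunits 2 of 4 fell, and of its assembly factors 2 of 4, against 9.36% of all genes tested. Sdha (chr13:74322254-74350280), the flavin subunit that oxidizes succinate, stood at 22224, 21695, 22875, 23428 and 23642 normalized counts in GFP libraries and at 20373, 20771, 21239, 20156 and 19726 in Sox11 libraries. The groups did not overlap, and Sox11 7 was the lowest. The fall was 0.15 ± 0.04 SE on the log2 scale (limma adjusted p = 0.0269).

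Sdhd (chr9:50596357-50603812), an anchor subunit in the membrane, stood at 4830, 4776, 4911, 4898 and 4685 in GFP and at 4280, 4386, 4376, 4611 and 4330 in Sox11 libraries. All Sox11 values were below all GFP values, and the log2 fold change was -0.13 (limma adjusted p = 0.0248). Its partner anchor Sdhc lay on the other side of 0, at 0.10 ± 0.06 SE (adjusted p = 0.267), with 3615 to 4341 in GFP and 3932 to 4521 in Sox11 libraries, and Sox11 7 the lowest of the Sox11 values. Sdhb, the iron-sulfur subunit, stood at 5615 ± 163 and 5566 ± 264 normalized counts (SD, n = 5 each), a log2 difference of -0.01. The 4 subunits of this complex therefore had values on both sides of 0.

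Sdhaf3 and Sdhaf4 assist the maturation of Sdhb and Sdha. Sdhaf3 stood at 639, 607, 778, 693 and 704 in GFP libraries and at 542, 540, 542, 555 and 659 in Sox11 libraries. Its Sox11 7 value lay above GFP 1 and GFP 3, so the groups overlapped, and its fall of 0.27 ± 0.08 SE had the highest size among the called members (limma adjusted p = 0.0417). Sdhaf4 fell by 0.18 (limma adjusted p = 0.0455), with 830 to 938 in GFP and 731 to 834 in Sox11 libraries. Leaving out GFP 4, GFP 5 or Sox11 1 left no gene of complex II called.

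Promoters of the members were searched for motifs of regulators known to bind genes of oxidative phosphorylation. RefSeq windows on GRCm38, from 250 bases before to 50 after each start, were matched for 65 of the 79 members. The NRF1 motif was taken as GCGC, any base, T and GCGC, which on the opposite strand reads GCGC, A, any base and GCGC. On either strand it occurred in 15 of 65 members (23.1%) and in 5.19% of 27025 genes with a window. Those 27025 include genes outside the 17007 tested, and the windows were not matched for expression or base composition, here or for the motifs below. Of the 15 members that fell and had a window, 5 held it: Sdha, Sdhd, Sdhaf3, Sdhaf4 and Ndufa5. The sites of these 5 are shown because they include all 4 genes of complex II that fell; the 10 bases of the match are in capitals, on the gene's strand, 5′ to 3′.
Sdha site 1, chr13:74350319-74350348, minus strand: cgtttacaggGCGCAGGCGCaccaccactc
Sdha site 2, chr13:74350276-74350305, minus strand: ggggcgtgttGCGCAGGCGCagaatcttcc
Sdha site 3, chr13:74350231-74350260, minus strand: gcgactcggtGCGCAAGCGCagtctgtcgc
Sdhd, chr9:50603909-50603938, minus strand: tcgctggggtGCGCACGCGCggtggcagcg
Sdhaf3, chr6:6956001-6956030, plus strand: cccaccttctGCGCAGGCGCggcgcgatgc
Sdhaf4, chr1:24005613-24005642, minus strand: ccaccttggtGCGCGTGCGCagacgctgtg
Ndufa5, chr6:24527697-24527726, minus strand: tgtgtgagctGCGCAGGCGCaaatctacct
Relative to the RefSeq start of its window, the match in Sdhaf3 spans the start and that in Sdhaf4 lies after it, while the others lie before it. These starts differ from the ends of the GENCODE genes: by the GENCODE coordinates the matches in Ndufa5, Sdhaf3, Sdhaf4 and Sdha site 3 lie inside the gene.

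Sdha was the member with 3 matches, at 98 to 89, 55 to 46 and 10 to 1 bases before its RefSeq start. The motif was not restricted to members that fell: it also occurred in 10 that did not pass, such as Uqcrc1, Ndufs6 and Cox6a1. The YY1 motif AAGATGGCG occurred in 6 of 65 members (9.23%) and in 1.64% of all genes, and in none of the members that fell. The ETS motif CCGGAAGT, bound by Gabpa, occurred in 4 members (6.15%) and 4.31% of genes, also in none that fell. The estrogen-related receptor motif TCAAGGTCA occurred in 1 member, Sdhd. The SOX motif AACAANG occurred in 8 of 65 members (12.3%) and in 16.0% of all genes, and in none of the 15 windows of members that fell. Both strands were searched for each motif, matches may overlap, and a match of letters is not a measured binding site.

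Complex III, the cytochrome bc1 complex, was represented by 8 subunits, of which 1 fell (12.5%, against 9.36% of all genes tested). Uqcrc2 (chr7:120635176-120659524), a core protein on the matrix side, stood at 11662, 11608, 11518, 12145 and 11950 in GFP and at 10296, 10785, 10633, 11031 and 10820 in Sox11 libraries. The lowest GFP library was above the highest Sox11 library, and the fall was 0.14 ± 0.04 SE on the log2 scale (limma adjusted p = 0.0267). Leaving out GFP 5, GFP 6, Sox11 1, Sox11 2 or Sox11 3 left no gene of complex III called.

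The partner core protein Uqcrc1 stood at 9137 to 10286 in GFP libraries, at 9725, 9618 and 10554 in Sox11 1, 2 and 3, and at 8447 and 8320 in Sox11 6 and 7. Only the last 2 lay below the GFP range, and the log2 fold change of -0.05 had an adjusted p of 0.674. The Rieske iron-sulfur protein Uqcrfs1 had means of 5710 ± 205 and 5671 ± 348 (SD, n = 5 each), a log2 difference of -0.01. Uqcrb, which helps bind ubiquinone, had -0.17 (adjusted p = 0.0968). Only 67.6% of its sequence words were its own, the lowest share of any member, so its reads may be divided with copies elsewhere.

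Complex IV was represented by 17 genes, of which 1 fell, a share of 5.88% against the background of 9.36% given above. Among the 17, the second forms Cox4i2, Cox6a2, Cox6b2, Cox7a1, Cox7b2 and Cox8b had GFP means under 200, a level at which no member was called. Over all genes in the range of means of the members above 200, 12.1% fell. Ndufa4, which fell, was counted with complex I by its prefix. The low share of complex IV thus depends in part on which genes are counted. Cox7b (chrX:106015700-106022450), a small subunit in the membrane, stood at 5928, 6129, 5872, 6042 and 6391 in GFP libraries and at 5360, 5446, 5800, 5657 and 5232 in Sox11 libraries. All Sox11 values lay below all GFP values, and the log2 fold change was -0.14 ± 0.04 SE (limma adjusted p = 0.0359). The call was lost when any of 7 libraries was left out (GFP 1, GFP 3, GFP 5, GFP 6, Sox11 1, Sox11 2 or Sox11 7).

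The subunits around the catalytic core gave values near 0 or split by library. Cox4i1, the member with the highest level per kilobase, stood at 18781, 18442, 18303, 19334 and 19289 in GFP and at 19494, 18552, 19699, 17705 and 17123 in Sox11 libraries. The Sox11 values thus lay on both sides of the GFP range, and the log2 fold change was -0.03 ± 0.05 SE (adjusted p = 0.791). Cox5a, which binds next to Cox4i1, stood at 5873, 6046 and 6461 in Sox11 1, 2 and 3 and at 5230 and 4567 in Sox11 6 and 7, around GFP values of 4640 to 5974. Cox8a, the smallest subunit, ran from 9568 to 12082 in GFP libraries and stood at 11687, 11836 and 11827 in Sox11 1, 2 and 3 and at 9556 and 7738 in Sox11 6 and 7. For Cox5a and Cox8a the log2 fold changes of 0.05 and -0.07 had adjusted p of 0.814 and 0.748. Cox5b, the zinc-binding subunit, had -0.08 (adjusted p = 0.468).

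Second forms of subunits were read as a share of their pair per kilobase, with no test. In no library did a second form exceed 2.65% of its pair, the value of Cox6b2 in GFP 3. Ndufa4l2, a form induced in hypoxia, had 0.440% ± 0.0444 of its pair in GFP and 0.541% ± 0.0546 in Sox11 libraries (SD, n = 5 each). Its ranges overlapped, at 0.385 to 0.499% and 0.474 to 0.606%. Cox4i2, known from lung and hypoxic cells, had 0.279% ± 0.0620 and 0.311% ± 0.0437, and Cox6a2, the form of heart and skeletal muscle, 0.641% ± 0.151 and 0.568% ± 0.0876 (SD, n = 5 each).

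Cox6b2, known from testis, parted along the column numbers in the control group. It stood at 113 and 200.4 normalized counts in GFP 1 and GFP 3, at 51.7, 47.8 and 43.6 in GFP 4, 5 and 6, and at 89.96 to 123 in the Sox11 libraries. Of the Sox11 values, those of Sox11 6 and 7 lay between GFP 4 and GFP 1, and those of Sox11 1, 2 and 3 between GFP 1 and GFP 3. The log2 fold change of 0.52 ± 0.38 SE had an adjusted p of 0.401. Without GFP 3 it was 0.87 (limma adjusted p = 0.0356), and within the columns 4 to 7 it was 1.00 (limma adjusted p = 0.0139). Within the columns 1 to 3 it was -0.35 (adjusted p = 0.409).

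Cox7a1, the form of heart and skeletal muscle, stood at 63.8, 88.7, 49.5, 44.7 and 48.8 in GFP and at 38.0, 41.7, 40.3, 45.1 and 38.1 normalized counts in Sox11 libraries. Its log2 fold change of -0.49 ± 0.19 SE did not pass (adjusted p = 0.0980), and Sox11 6 lay above GFP 5. Cox8b, also of heart and skeletal muscle, stood at 82.9 in GFP 3 and at 2.08 to 9.90 in the other GFP libraries, with 2.44 to 11.9 in Sox11 libraries. GFP 3 was the highest library for Cox6b2, Cox7a1, Cox8b and Cox4i2 share alike, and it is the library with high choroid plexus markers, whose part in these values was not tested. Leaving out GFP 3, the mean Cox8b share of the GFP libraries was 0.103% in place of 0.321%, against 0.110% in Sox11 libraries.

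**Figure D4:**
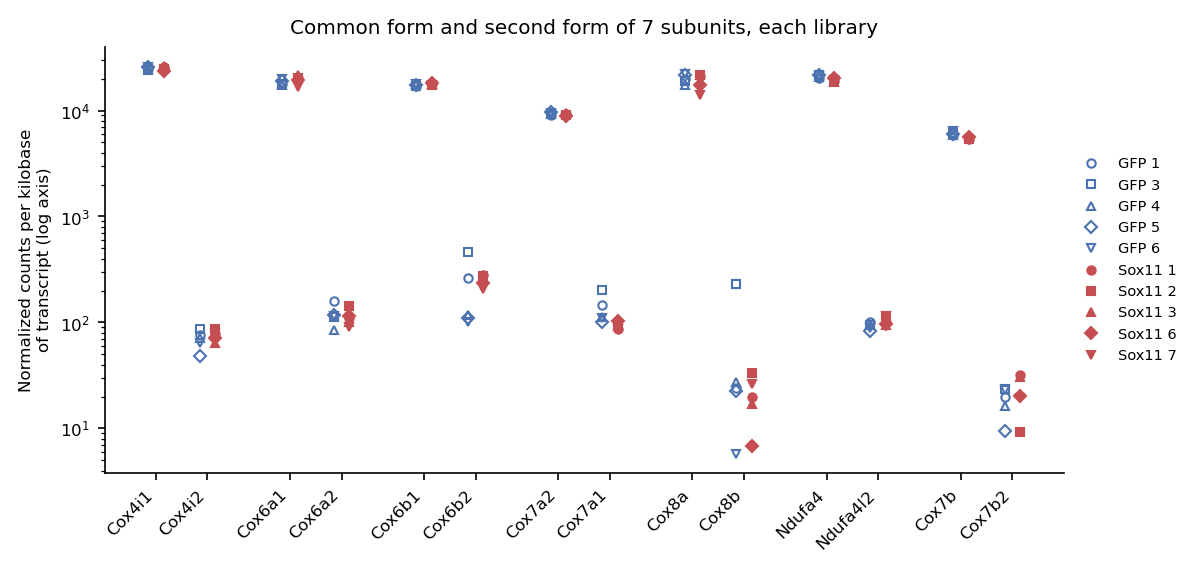
Normalized counts per kilobase of transcript (y axis, log scale) of the common and the second form of 7 subunits (x axis), for each GFP (open blue) and Sox11 library (filled red). Every common form lies far above its second form in all 10 libraries, and GFP 3 is the highest open symbol for Cox6b2, Cox7a1 and Cox8b.

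The 11 subunits encoded by mitochondrial DNA lie outside the rule and serve as partners of the nuclear ones. Of these, mt-Nd3, mt-Nd4l and mt-Co2 were listed at 0 in every library and mt-Co3 in all but GFP 6, so 7 were tested. None of the 7 was called by limma, and their log2 fold changes ran from -0.42 to -0.0036, with a median of -0.19. At an unadjusted p below 0.05 the count was also 0, as it was with edgeR and DESeq2. The summed level of the list ran from 2043588 to 2631754 normalized counts in GFP and from 1561538 to 2803069 in Sox11 libraries. Sox11 3 was the lowest and Sox11 6 and 7 the highest of all libraries. For the median nuclear subunit as a log2 level relative to the GFP mean, Sox11 7 was instead the lowest in each complex. This depends on the measure: by the median per kilobase of transcript, Sox11 7 was the highest library in complex IV, at 6480. How poly(A) selection captures these transcripts was not tested.

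Assembly factors without the members' prefixes moved both ways, beside shares over all genes tested of 9.36% that fell and 9.65% that rose. For complex I, of 8 tested, Tmem126b of the membrane-arm assembly complex fell by 0.27 (limma adjusted p = 0.000777), from 2027 to 2170 in GFP to 1694 to 1830 in Sox11 libraries. Timmdc1, which acts in the same assembly step, rose by 0.28 (limma adjusted p = 0.00367), from 740 to 800 to between 872 and 992. Foxred1, another complex I assembly factor, rose by 0.14 (limma adjusted p = 0.0417), a call that was lost whichever library was left out (adjusted p 0.052 to 0.090). For complex III Ttc19 and Uqcc1 fell, 2 of 6, and the call of Uqcc1 was lost without GFP 1, 5 or 6 or Sox11 1, 2 or 3. For complex IV, of 19 tested, Coa5, Coa6 and Surf1 fell by 0.26, 0.25 and 0.13, and Cox19, a copper-handling protein, rose by 0.33. The call of Surf1 was lost in 9 of the 10 fits that leave out a library, all but that without Sox11 2, and those of Coa5, Coa6 and Cox19 in none. The 3 supercomplex factors were Higd1a, Higd2a and Cox7a2l, and Cox7a2l is also a member, already counted in complex IV. Of these 3, and of Cyc1 and Cycs, which encode cytochromes c1 and c, limma called 0. By limma 0 of them had an unadjusted p below 0.05, and 0 were called by edgeR or DESeq2.

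Among 16 regulators of mitochondrial genes, 3 fell (18.75%) and 1 rose (6.25%), against 9.36% and 9.65% of all genes tested. Esrrg, an estrogen-related receptor that drives oxidative genes, fell by 0.42 (limma adjusted p = 0.00471), from 862, 1106, 882, 810 and 815 in GFP to 698, 662, 636, 677 and 640 in Sox11 libraries. Ppargc1b, a coactivator of such receptors, fell by 0.34 (limma adjusted p = 0.0176), from 327 to 405 to between 250 and 316. The mitochondrial DNA polymerase Polg fell by 0.16, a call lost without GFP 5 or 6 or Sox11 1, 2, 3 or 7, while Twnk, the helicase of mitochondrial DNA, rose by 0.39 (limma adjusted p = 0.000695), from 859 to 1024 to between 1189 and 1284. Nrf1 (0.08), Gabpa (-0.08), Esrra (-0.15), Yy1 (-0.11), Tfam (-0.13) and Ppargc1a (-0.10) did not pass, as log2 fold changes.

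Neighbouring pathways gave the following counts beside the 17 of 79, where 9.36% of all genes tested fell and 9.65% rose. Of 15 ATP synthase genes 3 fell, Atp5h by 0.21, Atp5b by 0.16 and Atp5c1 by 0.14. The call of Atp5b was lost without GFP 5 or 6 or Sox11 6 or 7, and that of Atp5c1 without GFP 1, 4, 5 or 6 or Sox11 1, 2 or 3. Of 16 citrate cycle genes 4 fell, among them Sucla2 by 0.26, Suclg1 by 0.22 and Idh3a by 0.17. Of 12 genes of the outer membrane, protein import and cristae 6 fell, with Tomm20, an import receptor, down from 21020 to 24260 in GFP to 16670 to 18075 in Sox11 libraries (log2 fold change -0.40, limma adjusted p = 0.000524). Of 16 glycolysis genes 9 fell, with a list median of -0.27 on the log2 scale, among them Pfkp by 0.35, Tpi1 by 0.39 and Eno2, the neuronal enolase, by 0.47. In these 4 lists 0 genes rose by limma, edgeR or DESeq2, and 1, in glycolysis, was higher at an unadjusted p below 0.05. These lists were chosen with earlier results of these data known, so their counts are descriptions.

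**Figure D5:**
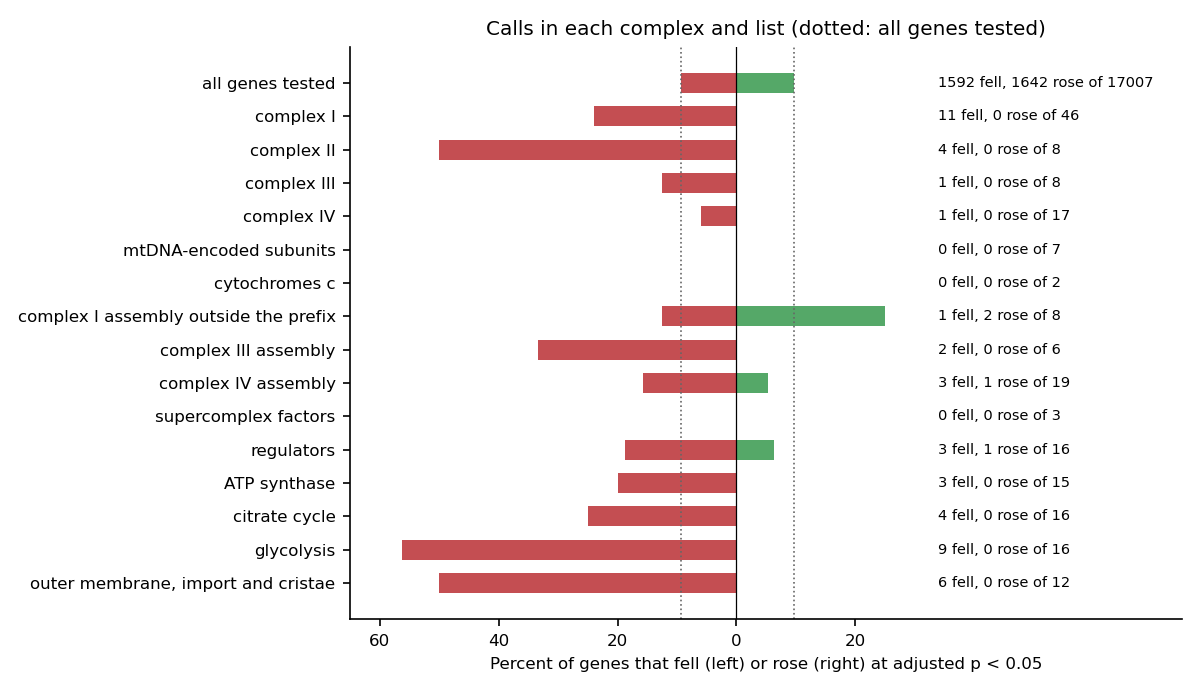
Percentage of genes that fell (left of 0) or rose (right of 0) at adjusted p below 0.05 (x axis) in each complex and pathway list (y axis), with dotted lines at the percentages over all genes tested and the counts printed at the right. Glycolysis reaches 56.2% fallen with 9 of 16, complex I 23.9% with 11 of 46, and complex IV 5.88% with 1 of 17.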

How the data were processed

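Dentate gyrus RNA of 10 mice (5 GFP, 5 Sox11) was sequenced, per the labels' protocols with a stranded poly(A) kit. The submitters' processing notes list cutadapt 1.9.1, STAR 2.5.2a, featureCounts 1.5.1, DESeq2 1.12.3 and GRCm38. The sources used here do not state the annotation release, the strand setting or how multiply mapping reads were treated. The table the authors deposited holds a signal, the normalized count of each gene in each library: read counts divided by 1 factor per library, per the values themselves (100% of values above 0 were whole multiples of 1 read within 0.01 reads). Column numbers do not match the titles' numbers, so a column stands for its group and no particular sample.

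GENCODE M21 (GRCm38) gave symbols and coordinates and matched 48144 of 48526 identifiers. Sox11 was compared with GFP by limma 3.58.1 (R 4.3.3, trend and robust) on log2(normalized count + 1), which understates changes of low genes, over 17007 genes with a mean of at least 10, with Benjamini-Hochberg adjustment over all of them and a threshold of 0.05. It was tested on simulated data whose smallest change was larger than that of any member that fell, so changes of the members' size were not covered. Levels between genes are per kilobase of the median transcript length. Alternatives were another threshold, pseudocount, filter, scaling, edgeR 4.0.16 and DESeq2 1.42.0 on the recovered reads, a covariate or block on column number, subsets of columns and each library left out. Members were named if they had one of the 12 largest called changes, were core subunits, paralog pairs, extremes of level, the lowest 2 p of a complex or, of a list, the lowest 3 p. The members and lists were chosen with earlier results of these data known. One member is counted but not reported by name.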

Additional observations from a re-analysis of the deposited data

Results flagged for a closer look

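Among 104 groups of 5 libraries checked for a single distant value, 5 stood out, where chance flags about 1 in 20 groups (5.2 of 104). In the Sox11 group, Sox11 7 was the lowest for Ndufab1 (1055 normalized counts, the others 1166 to 1197) and for Sdhc (3932, the others 4379 to 4521), and the highest for Sdhaf3 (659, the others 540.0 to 555). In the GFP group, GFP 3 was the highest for Cox8b (82.9 normalized counts, the others 2.08 to 9.90) and for the Cox8b share of its pair (1.20%, the others 0.0263 to 0.158%).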

How the results depend on the processing

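None of the 17 members that fell changed direction in any of 23 alternatives. The count of members that fell was 1 at a threshold of 0.01, with 1, 0, 0 and 0 in complexes I to IV and 1 among subunits only (all genes, 721 fell and 816 rose). It was 6 with no filter on low values (6, 0, 0 and 0, subunits 6). Within the columns numbered 1 to 3 it was 0 (all genes, 424 fell and 589 rose), and within 4 to 7 it was 7 (6, 1, 0 and 0, subunits 5), with 1 member, in complex IV, that rose. Complex IV had 0 that fell with TMM scaling and without the trend and robust options, and 2 with the column division as a covariate. The counts were 16 with edgeR and 22 with DESeq2. For these tools, for the fit with no filter and within 4 to 7 the all-gene counts are not given here, so the member counts stand without a background. With 1 library left out, 7 to 16 members fell (complex I 6 to 12, II 0 to 4, III 0 to 2, IV 0 to 1, subunits 7 to 14) and 0 to 1 rose, Cox6b2 without GFP 3. What the column numbers stand for is not known. The correlations of GFP and Sox11 libraries with the same number were 0.19, 0.07 and 0.41 for numbers 1, 3 and 6, not all above 0.1, and of these GFP libraries only GFP 6 correlated best with its own number, so the numbers were not taken as pairs. With a replicate block on them, 0 members fell in each complex and over all genes 4 fell and 45 rose.

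With lengths as the union of exons, shares in GFP and Sox11 libraries were 0.528 and 0.589% for Cox4i2 and 1.119 and 1.37% for Ndufa4l2; in Sox11 libraries they were 0.697% for Cox6a2, 0.804% for Cox6b2 and 1.19% for Cox7a1. The median levels per kilobase were 2286 and 2118 in complex I, 3212 and 3029 in II, 4404 and 4179 in III and 2844 and 2768 in IV.

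Members that were not called changed sign as follows, as log2 fold changes. Within the columns 1 to 3 these were Ndufs7 0.088, Ndufs8 0.044, Ndufv1 0.091, Sdhb 0.071, Uqcrc1 0.083, Uqcrfs1 0.068, Cox4i1 0.048, Cox4i2 -0.11, Cox6b2 -0.35, Cox7a2 0.015, Cox7b2 -0.014 and Cox8a 0.14. Within 4 to 7 they were Cox5a -0.15 and Cox6a1 -0.056. Ndufv1 was 0.00072 with TMM, 0.0014 with edgeR and 0.0019 with the block, where Uqcrfs1 was 0.022, Cox4i1 0.0084 and Cox4i2 -0.084. With 1 library left out the ranges that crossed 0 were Ndufv1 -0.035 to 0.021, Sdhb -0.029 to 0.0058, Uqcrfs1 -0.036 to 0.018, Cox4i1 -0.049 to 0.0016, Cox5a -0.0097 to 0.12, Cox6a2 -0.18 to 0.051, Cox8a -0.12 to 0.032 and Cox8b -1.13 to 0.059. The cause of these changes was not tested. Depth limits the lowest members: Cox8b and Cox7b2 rest on few reads per library.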
